A study of Homo sapiens with 14 samples.

Results

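The genes described here make sterols and fatty acids or regulate that synthesis. They were chosen by symbol in the platform annotation, as 18 enzymes of sterol synthesis, 4 regulators and 11 genes of fatty acid synthesis and desaturation, 33 in all. Each gene was read from its brightest probe set, by mean over the 14 arrays. Of the 33, 29 had a probe set that carried 1 gene symbol, out of 19775 such genes. A total of 28 passed the filter on low values, a mean above 6.19 on the log2 scale, among 13137 genes tested. ME1, the malic enzyme that supplies reducing power for fatty acid synthesis, had a mean of 5.03 and was not tested. FDFT1, CYP51A1, FADS1 and ACSL3 were not analysed here.

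The series asked how messenger RNA responds over time to miR-124, a small RNA abundant in neurons, in the liver tumour cell line HepG2. Cells received either miR-124 or a negative control, and total RNA was hybridised to one-colour arrays at 4, 8, 16, 24, 32, 72 and 120 h. Each transfection had 7 arrays, 1 at each time, so no time had a replicate and no single time was tested. HepG2 is 1 line, no untransfected array was used, and dose, medium and the sequence of the control RNA are not given in the sources used here.

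Cells make cholesterol from acetyl-CoA through the mevalonate pathway, which leads to squalene, then to lanosterol, the first sterol, and in many further steps to cholesterol. Fatty acid synthesis starts from the same acetyl-CoA and goes on by chain extension and desaturation. The transcription factors encoded by SREBF1 and SREBF2 switch on most of these genes. SCAP carries their precursors out of the endoplasmic reticulum when sterols are low, and INSIG1 holds them back when sterols are high. The liver is a main site of both syntheses.

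Across the arrays, 9 of 10 hepatocyte markers were found, led by SERPINA1, ALB and APOH at means of 13.9, 13.8 and 13.8 on the log2 scale. Of markers of blood, fibroblast and endothelial cells, 9 of 10 were found. Their summed linear level ran from 1165 to 1375 on miR-124 arrays and from 1107 to 1243 on control arrays, against 86444 to 96593 and 89036 to 104694 for the hepatocyte markers, and none was at 0. PTPRC, COL3A1 and CDH5, markers of blood cells, fibroblasts and endothelium in that order, had means of 5.39, 5.12 and 4.48 and fell below the filter. The other 6 passed it, COL1A1 at 8.44, PECAM1 at 8.37, CD3E at 7.22, COL1A2 at 6.74, DCN at 6.70 and VWF at 6.32. Signal from the 3′ end over that from the 5′ end, which grows as RNA degrades, was larger with miR-124 for ACTB at 7 of 7 times (by a mean of 0.135 log2) and for GAPDH at 6 of 7 (0.0724 log2). Probe sets for 18S ribosomal RNA were brightest on the 4 h miR-124 array, at 11.1 against 8.70 on the 4 h control array.

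The sterol enzymes rose with time after transfection, on miR-124 and on control arrays. Change with time was fitted as a slope, the log2 change per doubling of time, over the 7 arrays of a transfection, and a gene was called at an adjusted p under 0.05 from limma over all genes tested. On miR-124 arrays 17 of 28 tested members rose and none fell, where 13.7% of all genes rose and 8.06% fell. On control arrays 13 of 28 rose and none fell, where 2.7% of all genes rose and 5.48% fell. Among the 16 tested sterol enzymes, 11 rose with miR-124 and 12 with the control, and the slope was above 0 in all 16 with either transfection. The median slope of the sterol enzymes was 0.23 with miR-124 and 0.26 with the control, and that of all genes was 0.00 in both. These members were picked with earlier results of these arrays known, so the counts describe them and are no independent evidence of a direction. At 4 and 120 h the 3′ over 5′ signal of ACTB was 0.351 and 0.411 log2 with miR-124, against 0.348 and 0.102 with the control. That of GAPDH was 0.195 and 0.199 with miR-124, against 0.204 and 0.0311 with the control, and its part in the rise was not tested.

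Both counts depended on single times, and 4 miR-124 calls, those of HMGCS1, NSDHL, PMVK and SCD, also missed the threshold with no filter or with centred arrays (adjusted p between 0.05 and 0.0592). The miR-124 count was 9 without 8 h and 9 without 120 h. The control count was 4 without 8 h, 8 without 16 h, 8 without 72 h and 7 without 120 h.

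MSMO1, a methyl sterol oxidase, rose with both. On the miR-124 arrays from 4 to 120 h it read 10.55, 10.54, 11.25, 10.99, 11.00, 11.82 and 12.23 on the log2 scale, against 10.53, 10.56, 11.38, 11.44, 11.51, 12.09 and 12.44 on the control arrays. It moved up between 8 and 16 h and again between 32 and 72 h in both series. The slope was 0.34 ± 0.05 with miR-124 (SE, limma adjusted p = 0.00792) and 0.41 ± 0.03 with the control (adjusted p = 0.00544), and the level at 120 h was 3.19-fold and 3.76-fold that at 4 h.

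IDI1, the isomerase that makes the pathway's reactive isoprene unit, read 9.83, 9.67, 10.45, 10.09, 10.24, 11.18 and 11.55 with miR-124, against 9.88, 9.72, 10.27, 10.24, 10.40, 11.30 and 11.13 with the control. Its slopes were 0.37 ± 0.06 with miR-124 and 0.32 ± 0.05 with the control (adjusted p = 0.0103 and 0.0144). With the control, a second IDI1 probe set about as bright gave 0.34, while dimmer ones gave −0.06 and −0.07. The miR-124 level was the higher one at 16 h and at 120 h, and neither window test between transfections called it. The probe sets that read IDI1 and HSD17B7 belong to a class whose probes can match other sequences, so both are less certain.

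SQLE, squalene epoxidase, ran from 10.20 to 11.76 with miR-124 and from 10.11 to 11.70 with the control, with slopes of 0.32 ± 0.05 and 0.30 ± 0.05 (adjusted p = 0.00838 and 0.0185). MVD, which makes the isoprene unit's precursor, had slopes of 0.27 ± 0.06 and 0.31 ± 0.05 in the same order (adjusted p = 0.0228 and 0.0148). HSD17B7, a sterol ketoreductase, had 0.23 ± 0.04 and 0.22 ± 0.04 (adjusted p = 0.00977 and 0.0156). For these 3 enzymes the slopes of the transfections differed by no more than 0.05 log2 per doubling, and the test of that difference called none of them. SQLE and HSD17B7 were not called in the control course without 8 h (adjusted p = 0.0502 and 0.0501), nor MVD in the miR-124 course without 8 h or 120 h (0.0688 and 0.0529).

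Of the mevalonate kinases, MVK, which phosphorylates mevalonate, had slopes of 0.04 ± 0.02 with miR-124 and 0.07 ± 0.02 with the control on the probe set used and was called in neither (adjusted p = 0.187 and 0.0682). Of its 3 other probe sets, 2 were steeper with the control (0.14 and 0.26) and 1 flatter (0.04). With the mean over its probe sets MVK was called in both, at 0.10 with miR-124 and 0.13 with the control (adjusted p = 0.0138 and 0.0293). PMVK, which adds the next phosphate, had 0.14 ± 0.04 with miR-124 (adjusted p = 0.0469, between 0.0596 and 0.138 without any 1 of the times from 8 to 120 h) and 0.02 ± 0.03 with the control (adjusted p = 0.585). NSDHL, a sterol dehydrogenase, and TM7SF2, a sterol reductase, were called with miR-124 alone. NSDHL had 0.16 ± 0.05 with miR-124 and 0.13 ± 0.05 with the control (adjusted p = 0.0461 and 0.11), and TM7SF2 had 0.23 ± 0.06 and 0.17 ± 0.06 (adjusted p = 0.0377 and 0.102, the second 0.00441 with time in hours). Both miR-124 calls were lost without 8, 16, 24, 72 or 120 h, and the test of the slope difference called neither gene.

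**Figure D1:**
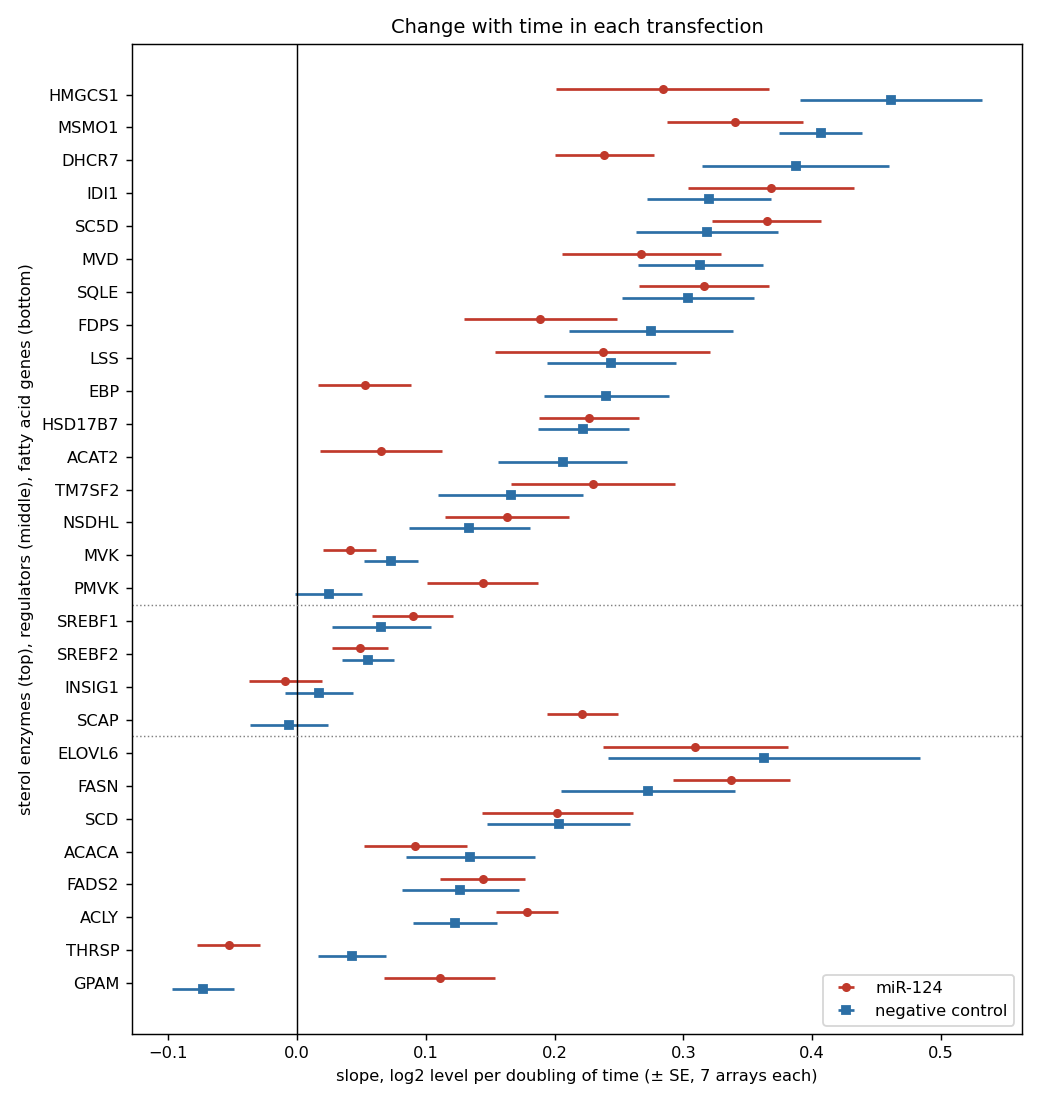
Slope of the log2 level per doubling of time (horizontal axis, ± SE, 7 arrays for each point) for 28 tested genes, with miR-124 (red circles) drawn above the negative control (blue squares). Dotted lines part the sterol enzymes from the regulators and these from the fatty acid genes. All 16 sterol enzymes lie right of 0 in both, while EBP and ACAT2 lie near 0.05 and 0.07 with miR-124 and at 0.24 and 0.21 with the control.

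The rise came in steps. The 8 h level lay below both the 4 h and the 16 h level for 13 of 16 sterol enzymes with miR-124 and 12 of 16 with the control. It held with both for 12 of 16. Over all genes tested the shares were 28.5% with miR-124, 40.7% with the control and 15.7% with both. Between 32 and 72 h, 16 of 16 sterol enzymes moved up with each transfection, by a median of 0.61 log2 with miR-124 and 0.82 with the control. The last step, from 72 to 120 h, had a median of 0.38 with miR-124, with 14 of 16 up, and 0.03 with the control, with 9 of 16 up. With 1 array for each time, no single step was tested.

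Both late levels, at 72 and 120 h, lay above all 5 earlier ones for 13 of 16 sterol enzymes with miR-124 and for 16 of 16 with the control, where 19.6% and 14.7% of all genes did so. It held with both transfections for 13 of 16, where it did for 5.67% of all genes. At 120 h the level was at least 2-fold that at 4 h for 9 of the 16 with miR-124 and for 9 with the control, where 3.75% and 1.44% of all genes were. Relative to 4 h, the median sterol enzyme on the 6 later miR-124 arrays, in order of time, was at −0.14, 0.08, 0.05, 0.09, 0.75 and 1.05 log2. The control medians at those times were −0.13, 0.19, 0.23, 0.25, 1.08 and 1.13. The median of all genes lay between −0.01 and 0.05 with miR-124 and between −0.03 and 0.00 with the control.

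**Figure D2:**
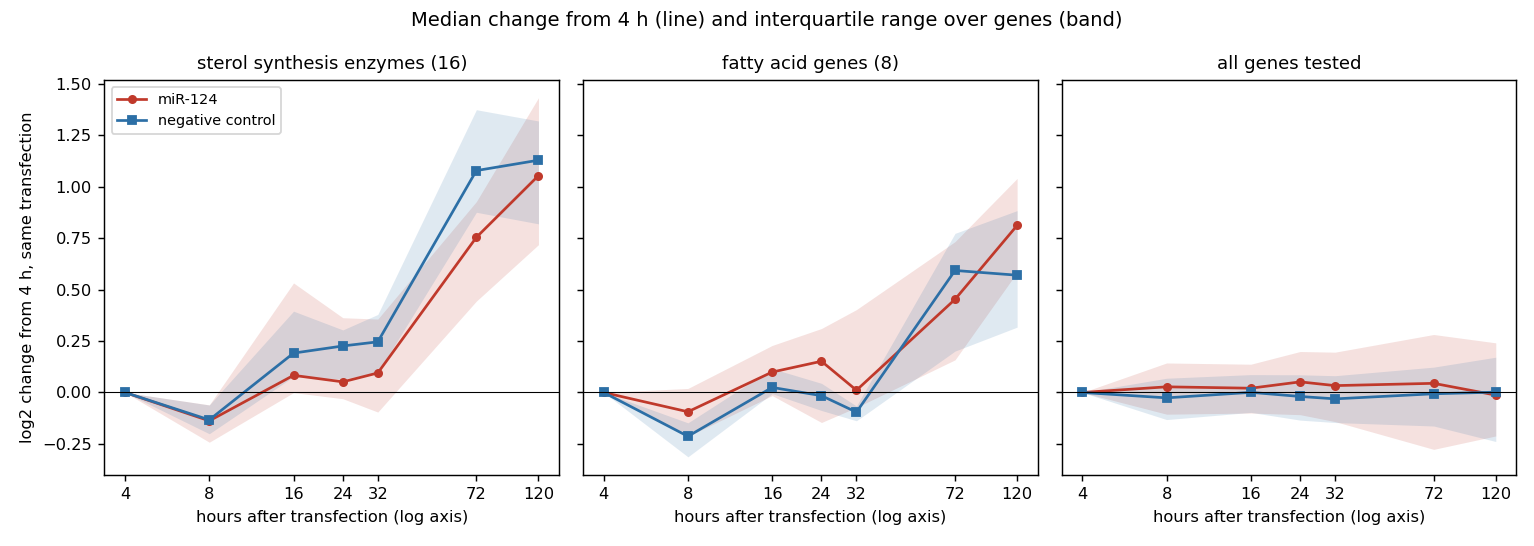
Log2 change from the 4 h array of the same transfection (vertical axis) by hours after transfection (log axis) for 16 sterol enzymes, 8 fatty acid genes and all genes tested, with miR-124 in red and the negative control in blue. Lines are medians over genes and bands are the interquartile range over genes. The sterol enzymes reach 1.05 with miR-124 and 1.13 with the control at 120 h, and the median of all genes lies near 0 throughout.

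Promoters are shown for 4 sterol enzymes called between transfections in the middle window (HMGCS1, LSS, MSMO1 and SC5D) and for SREBF2. The SREBF2 window held the 1 exact match among the members to the string searched for a sterol regulatory element. The windows, from RefSeq on GRCh38.p14, lie mostly before a start site and run a little past it, 5′ to 3′ on the gene's strand. Letters in capitals are a CCAAT box (CCAAT, or ATTGG on the other strand), an E-box (CACGTG) or a sterol regulatory element (TCACNCCAC). The windows are chr5:43313363-43313662 on the minus strand for HMGCS1, chr21:46228725-46229024 on the minus strand for LSS, and on the plus strand chr4:165327419-165327718 for MSMO1, chr11:121292521-121292820 for SC5D and chr22:41832855-41833154 for SREBF2.
HMGCS1: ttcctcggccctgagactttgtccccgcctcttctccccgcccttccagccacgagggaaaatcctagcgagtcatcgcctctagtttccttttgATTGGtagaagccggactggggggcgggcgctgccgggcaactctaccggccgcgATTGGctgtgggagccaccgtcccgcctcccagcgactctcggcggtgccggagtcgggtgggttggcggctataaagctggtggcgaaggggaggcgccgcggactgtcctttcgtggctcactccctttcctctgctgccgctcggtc
LSS: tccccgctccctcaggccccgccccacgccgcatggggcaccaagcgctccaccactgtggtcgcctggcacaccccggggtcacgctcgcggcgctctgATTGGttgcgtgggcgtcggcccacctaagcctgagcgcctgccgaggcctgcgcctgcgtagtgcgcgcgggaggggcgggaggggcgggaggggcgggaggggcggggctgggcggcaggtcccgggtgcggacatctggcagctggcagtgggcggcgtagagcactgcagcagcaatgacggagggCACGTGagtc
MSMO1: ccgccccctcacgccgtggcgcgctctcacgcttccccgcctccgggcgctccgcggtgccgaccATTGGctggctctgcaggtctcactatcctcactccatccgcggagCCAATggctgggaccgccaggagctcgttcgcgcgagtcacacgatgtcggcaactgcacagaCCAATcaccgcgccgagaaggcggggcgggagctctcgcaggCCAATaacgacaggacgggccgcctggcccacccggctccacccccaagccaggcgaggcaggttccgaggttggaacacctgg
SC5D: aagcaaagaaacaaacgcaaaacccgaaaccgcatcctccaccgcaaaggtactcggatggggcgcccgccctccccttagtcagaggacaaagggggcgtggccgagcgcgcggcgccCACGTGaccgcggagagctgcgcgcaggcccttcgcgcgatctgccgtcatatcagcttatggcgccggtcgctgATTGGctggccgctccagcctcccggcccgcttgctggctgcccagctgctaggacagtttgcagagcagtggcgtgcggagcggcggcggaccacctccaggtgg
SREBF2: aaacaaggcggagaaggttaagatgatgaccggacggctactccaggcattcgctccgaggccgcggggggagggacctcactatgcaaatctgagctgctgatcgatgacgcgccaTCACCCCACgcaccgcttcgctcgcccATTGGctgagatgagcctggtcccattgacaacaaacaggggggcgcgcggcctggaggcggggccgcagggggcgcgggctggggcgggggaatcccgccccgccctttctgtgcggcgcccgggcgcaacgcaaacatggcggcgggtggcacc

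Of the 29 members found, 26 had a promoter entry, with 35 windows. All 3 motifs were searched on both strands, and no 2 matches overlap in the printed windows. CCAAT was present in 25 of the 35 member windows (71.4%), for 21 of 26 members, and in 34.6% of all 35116 windows. MSMO1 held 4 CCAAT boxes, HMGCS1 2, and LSS, SC5D and SREBF2 1 each. CACGTG was in 5 member windows (14.3%), those of INSIG1, LSS, SC5D and SCAP, and in 7.26% of all windows. TCACNCCAC was in 1 member window, that of SREBF2 (2.86%), and in 1.13% of all windows. A match is a description of the letters and not a binding site. Only these exact strings were searched, so windows without a match were not checked for variants of a motif.

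Differences between miR-124 and the control were tested as the paired log2 ratio, miR-124 over control, in an early (4 and 8 h), a middle (16, 24 and 32 h) and a late window (72 and 120 h). In bulk arrays fewer cells of a kind and less RNA per cell cannot be told apart, and whether the RNA quality measure above had a part in any ratio was not tested. In the early window limma called 0 of 28 members and 0.0% of all genes, and 0 members and 163 genes had an unadjusted p under 0.05. Of 28 members, 3 were lower and 2 higher in the middle window, where 4.36% of all genes were lower and 3.46% higher. In the late window 5 were lower and 4 higher, where 12.6% were lower and 16.4% higher. The late total of 9 of 28 is close to the share of all genes called, 29.1%, and is not a result about these genes as a group. Among the 16 sterol enzymes, 3 were lower and 1 higher in the middle window, and 5 were lower and 2 higher in the late window.

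Over all 7 pairs of arrays 1 of 28 members was called, HMGCS1, where 0.784% of all genes were lower and 0.129% higher. The 28 members had a median log2 ratio of −0.03 in the middle and −0.13 in the late window, beside 0.03 and −0.01 for all genes. The sterol enzymes had medians of −0.05 and −0.18. On arrays that did not overlap between transfections, 6 members were lower and 4 higher in the middle window, where 12.0% and 18.2% of all genes were. The late window had 6 lower and 5 higher, where 26.9% and 28.2% of all genes were. The middle call count was 0 without 24 h and 0 without 32 h, 2 without 4 h or 8 h and 3 without 16 h. The late count was 14 without 120 h. Fitted on its own 4 arrays the late window kept HMGCS1, and the other 8 had adjusted p between 0.0578 and 0.341.

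HMGCS1, a cytosolic synthase early in the mevalonate pathway, was lower with miR-124 at all 7 times. It read 9.69, 9.26, 9.78, 9.40, 9.60, 10.52 and 10.98 with miR-124, against 9.91, 9.51, 10.29, 10.25, 10.45, 11.55 and 11.89 with the control. From 16 h on the gap was at least 0.52 log2, and the arrays of the middle and of the late window did not overlap between transfections. The middle ratio was −0.74 ± 0.08 on the log2 scale, 1.67-fold lower (limma adjusted p = 0.00537, 3 pairs of arrays), and the late ratio −0.97 ± 0.10, 1.96-fold lower (adjusted p = 0.000635, 2 pairs). The middle call was lost without 24 h or 32 h (adjusted p = 0.0909 and 0.0748), while the late call held under all 13 alternatives. Over all 7 pairs the ratio was −0.66 ± 0.11 (adjusted p = 0.0499). Leaving out 16, 24, 32, 72 or 120 h put that adjusted p between 0.0908 and 0.203. It was 0.0517 to 0.0547 with centred arrays, the mean over probe sets or no filter, and 0.332 without the block for time.

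HMGCS1 still rose with time in both series. Its slope was 0.28 ± 0.08 with miR-124 (adjusted p = 0.0438, or 0.072 to 0.198 when 8, 16, 72 or 120 h was left out) and 0.46 ± 0.07 with the control (adjusted p = 0.0148), the steepest control slope among the members. At 120 h the level was 2.45-fold that at 4 h with miR-124 and 3.94-fold with the control. The slopes differed by −0.18 ± 0.03 log2 per doubling (adjusted p = 0.0223), and HMGCS1 was the 1 member called lower in that test, where 1.67% of all genes were lower and 6.91% higher. That call was lost without 4 h or 8 h (adjusted p = 0.0932 and 0.072), with the mean over probe sets (0.148), without the block for time (0.4) and with time in hours (0.161). A second HMGCS1 probe set gave −0.75 in the middle and −0.67 in the late window.

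**Figure D3:**
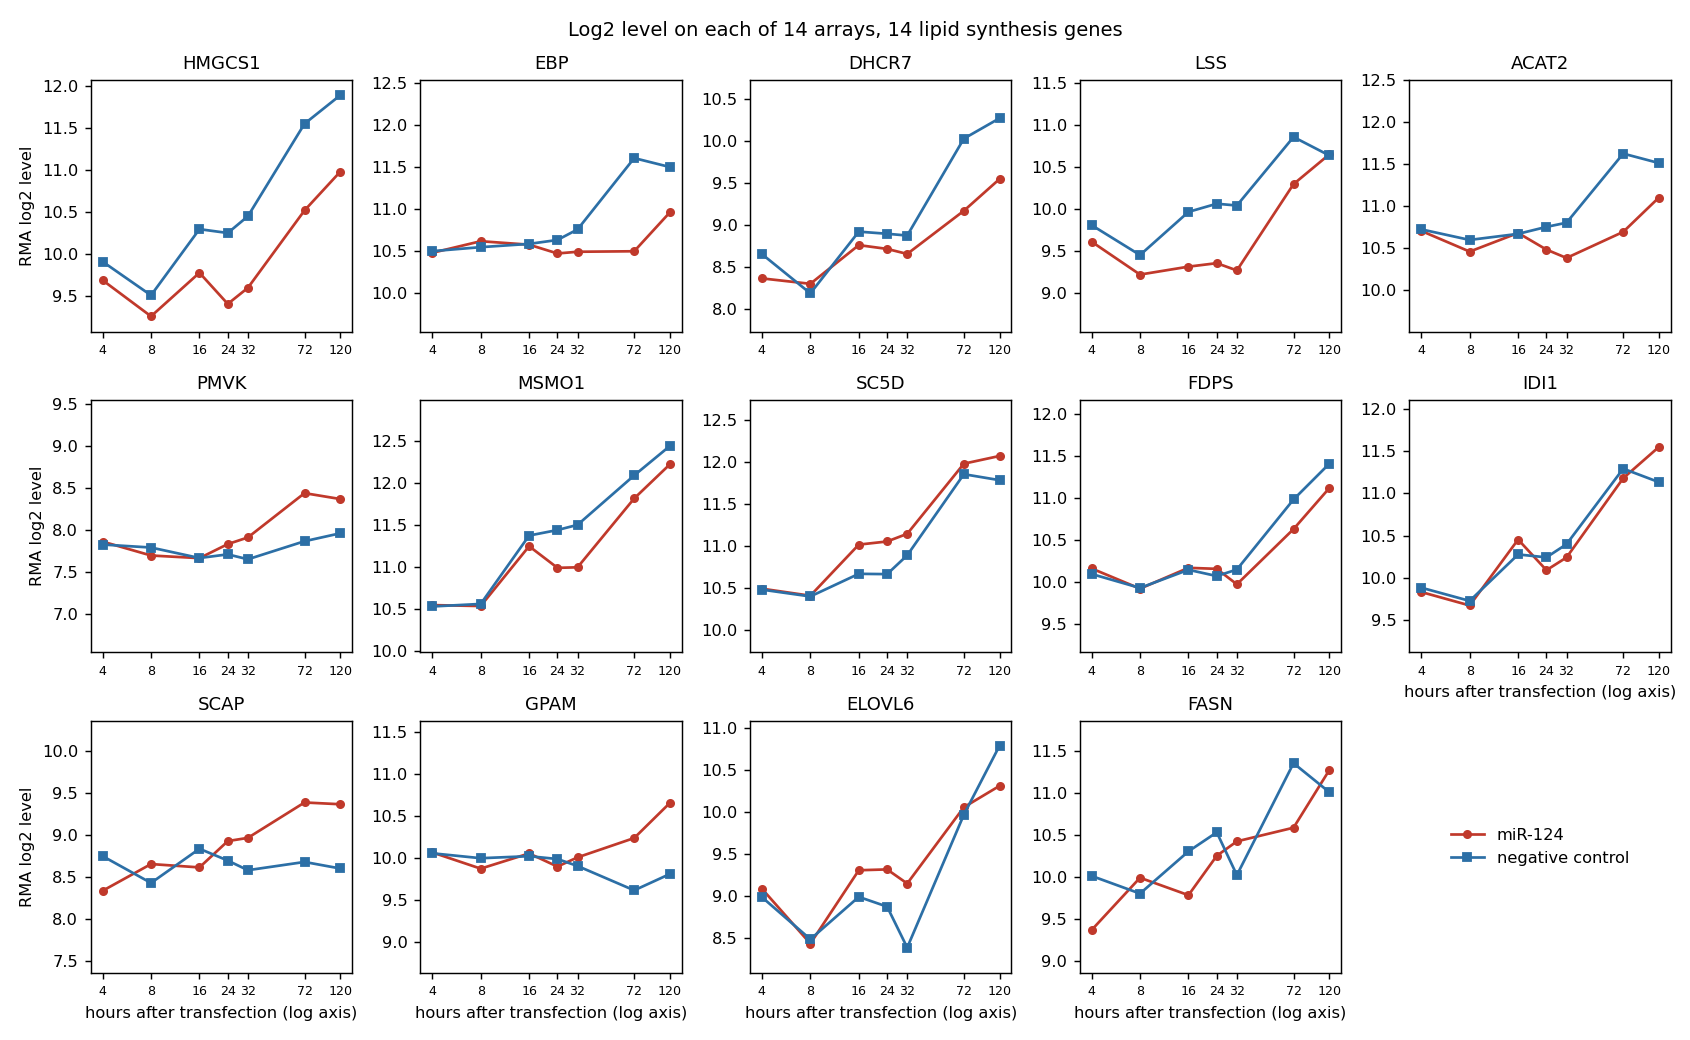
RMA log2 level (vertical axis, every panel to the same scale) on each of 14 arrays by hours after transfection (log axis) for 14 members, with miR-124 as red circles and the negative control as blue squares, 1 array for each point. HMGCS1 with miR-124 lies below its control at all 7 times, EBP and ACAT2 part mainly at 72 h, and SCAP and GPAM with miR-124 lie above the control at 72 and 120 h.

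Of the enzymes that act after squalene, LSS and MSMO1 were lower in the middle window. LSS, lanosterol synthase, read 9.62, 9.22, 9.32, 9.36, 9.27, 10.30 and 10.65 with miR-124, against 9.81, 9.46, 9.97, 10.07, 10.05, 10.86 and 10.64 with the control. On the probe set used, the miR-124 series stayed low from 8 to 32 h and met the control at 120 h. A dimmer LSS probe set gave a ratio of −0.58 in the middle and −0.59 in the late window. The dimmest gave −0.25 and 0.06, so the probe sets disagree on the late window. LSS was 1.64-fold lower in the middle window (log2 −0.71 ± 0.10, adjusted p = 0.00931, and 0.115 without 24 h or 0.109 without 32 h). Its late ratio was −0.27 ± 0.13 (adjusted p = 0.154), and −0.56 without 120 h (adjusted p = 0.00307).

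MSMO1, whose array values stand above, was 1.28-fold lower in the middle window (log2 −0.36 ± 0.09, adjusted p = 0.0441). Its ratio at 16, 24 and 32 h was −0.13, −0.45 and −0.51, and the call was lost without 4 h or 8 h (0.0865) without 24 h or 32 h (0.333 and 0.34), and without the block (0.0987). Late MSMO1 was at −0.25 ± 0.11 (adjusted p = 0.122).

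SC5D, the desaturase of a late step, went the other way. It read 10.49, 10.41, 11.02, 11.05, 11.14, 11.98 and 12.07 with miR-124, against 10.48, 10.40, 10.67, 10.66, 10.89, 11.85 and 11.78 with the control. From 16 h on it was higher with miR-124 at each time, by 0.12 to 0.39 log2. The middle window gave 1.26-fold (log2 0.33 ± 0.07, adjusted p = 0.0289), a call lost without any 1 of the times 4, 8, 16, 24 or 32 h (adjusted p between 0.0641 and 0.257). A second, dimmer probe set gave −0.08 in the middle and 0.58 in the late window, so its probe sets disagree. Their mean was at 0.12 in the middle (adjusted p = 0.293) and 0.39 in the late window (adjusted p = 0.00624). SC5D rose with time in both, at 0.36 ± 0.04 with miR-124 and 0.32 ± 0.05 with the control (adjusted p = 0.0048 and 0.0202, the second 0.0588 without 8 h).

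In the late window DHCR7, EBP, ACAT2 and FDPS were lower with miR-124 as well. DHCR7, which makes cholesterol from its immediate precursor, read 8.36, 8.30, 8.76, 8.71, 8.65, 9.17 and 9.54 with miR-124, against 8.65, 8.18, 8.92, 8.89, 8.87, 10.02 and 10.27 with the control. Its late ratio was 1.73-fold lower (log2 −0.79 ± 0.11, adjusted p = 0.00164), and a second probe set gave −0.68. It rose with time in both, at 0.24 ± 0.04 with miR-124 and 0.39 ± 0.07 with the control (adjusted p = 0.00863 and 0.0236, the second 0.0642, 0.053 and 0.0677 without 8, 72 or 120 h). The late minus middle difference was −0.60 ± 0.14 (adjusted p = 0.0507), which misses the threshold.

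EBP, a sterol isomerase, stayed nearly level with miR-124 until 72 h. Its values were 10.48, 10.62, 10.58, 10.47, 10.49, 10.50 and 10.96 with miR-124, against 10.50, 10.55, 10.59, 10.63, 10.76, 11.61 and 11.50 with the control. Both late control arrays lay above all 7 miR-124 arrays. Late EBP was 1.77-fold lower (log2 −0.82 ± 0.14, adjusted p = 0.00357), and −0.54 without 72 h. Its slope was 0.05 ± 0.04 with miR-124 (adjusted p = 0.33) and 0.24 ± 0.05 with the control (adjusted p = 0.0268, and 0.0703, 0.0519 and 0.0719 without 8, 16 or 120 h). The test of the slope difference gave −0.19 ± 0.06 (adjusted p = 0.078), and that of the late minus middle difference −0.68 ± 0.17 (adjusted p = 0.0707).

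ACAT2, the cytosolic thiolase that joins 2 acetyl-CoA at the start of the pathway, had a like shape. It read 10.71, 10.46, 10.68, 10.48, 10.38, 10.70 and 11.10 with miR-124, against 10.73, 10.60, 10.67, 10.75, 10.80, 11.63 and 11.51 with the control. The late ratio was 1.59-fold lower (log2 −0.67 ± 0.14, adjusted p = 0.0107). Without 72 h it was −0.41 (adjusted p = 0.0821). Its slope was 0.07 ± 0.05 with miR-124 (adjusted p = 0.359) and 0.21 ± 0.05 with the control (adjusted p = 0.0428, or 0.0633 to 0.122 when 8, 16, 24, 72 or 120 h was left out).

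FDPS, which builds the farnesyl unit, read 10.16, 9.92, 10.17, 10.16, 9.97, 10.63 and 11.12 with miR-124, against 10.09, 9.93, 10.14, 10.07, 10.15, 10.98 and 11.41 with the control. The series ran together until 24 h. The late ratio was 1.25-fold lower (log2 −0.32 ± 0.09, adjusted p = 0.032, and 0.0558 without 4 h or 8 h, 0.0527 without 16 h, 0.059 without 24 h, 0.121 without 72 h and 0.177 without the block). Late arrays overlapped between transfections, since the 120 h miR-124 array lay above the 72 h control array. Its slope was 0.19 ± 0.06 with miR-124 (adjusted p = 0.0544), and that with the control, 0.28 ± 0.06 (adjusted p = 0.0378), missed the threshold without 8, 16, 24, 72 or 120 h (0.0519 to 0.131).

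PMVK and TM7SF2 were higher in the late window. PMVK read 7.86, 7.70, 7.66, 7.83, 7.91, 8.44 and 8.37 with miR-124, against 7.83, 7.79, 7.67, 7.71, 7.65, 7.87 and 7.96 with the control. The late ratio was 1.404-fold (log2 0.49 ± 0.10, adjusted p = 0.00724). TM7SF2 was 1.23-fold higher (log2 0.30 ± 0.09, adjusted p = 0.0479), and its log2 ratio was 0.20 without 72 h. Its call was lost without any 1 of the times from 4 to 32 h (adjusted p between 0.062 and 0.0961) and without the block (0.113). It was also lost with no filter (0.0538) and with a prior variance following the mean (0.0593).

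The remaining sterol enzymes were called in neither window. SQLE was at −0.06 ± 0.08 in the middle and −0.02 ± 0.09 in the late window (adjusted p = 0.765 and 0.909). MVD was at −0.22 ± 0.12 and −0.21 ± 0.14, with a ratio of −0.54 at 72 h and 0.13 at 120 h, and its late value was −0.54 without 120 h (adjusted p = 0.00374). NSDHL had ratios of −0.40 at 72 h and 0.53 at 120 h, so its late value of 0.06 ± 0.19 was −0.40 without 120 h (adjusted p = 0.0212) and 0.53 without 72 h (adjusted p = 0.0115). HSD17B7, IDI1 and MVK had late ratios of 0.06, 0.15 and −0.16. Over the 16 enzymes the median ratios in order of time were 0.01, −0.01, −0.01, −0.11, −0.16, −0.31 and 0.03. At 72 h, 2 of the 16, HMGCS1 and EBP, were at least 2-fold lower, where 5.92% of all genes were.

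**Figure D4:**
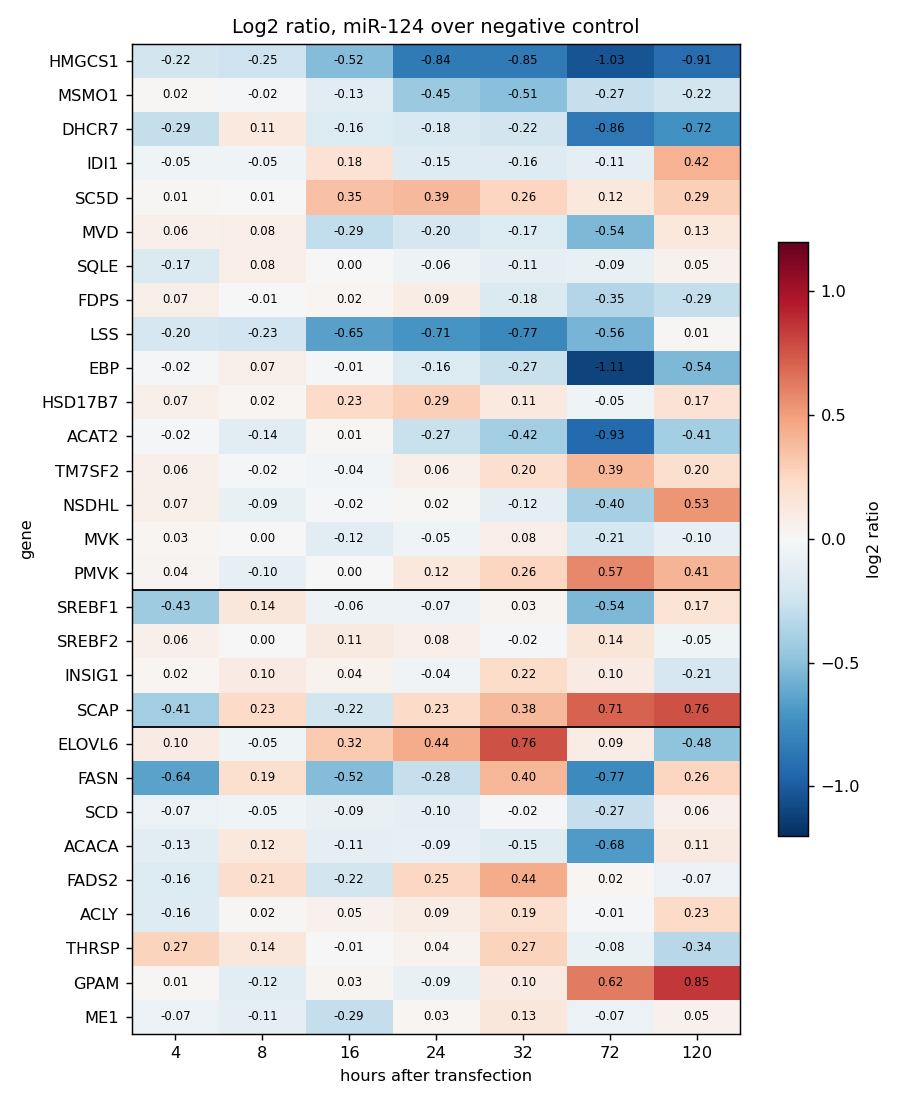
Log2 ratio, miR-124 over negative control, of 29 genes (rows) at 7 times (columns), 1 array over 1 array in each cell, with red for higher and blue for lower. Black lines part 16 sterol enzymes from 4 regulators and these from 9 fatty acid genes, of which ME1 was not tested. HMGCS1 is blue at all 7 times and reaches −1.03 at 72 h, and EBP and ACAT2 reach −1.11 and −0.93 there.

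Among the regulators SCAP alone was called on the probe sets used. SCAP read 8.33, 8.65, 8.61, 8.92, 8.96, 9.38 and 9.36 with miR-124, against 8.74, 8.43, 8.83, 8.69, 8.58, 8.68 and 8.60 with the control. It was lower with miR-124 at 4 and 16 h and higher at the other 5 times. Its slope was 0.22 ± 0.03 with miR-124 (adjusted p = 0.00495) and −0.01 ± 0.03 with the control (adjusted p = 0.917). The slopes differed by 0.23 ± 0.05 (adjusted p = 0.0248, 0.13 without 4 h and 0.0658 with time in hours), the 1 member called higher in that test. Late SCAP was 1.67-fold higher (log2 0.74 ± 0.18, adjusted p = 0.0169, and 0.0532 without 72 h).

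SREBF2 ran from 8.13 to 8.46 with miR-124 and from 8.07 to 8.42 with the control, with a late ratio of 0.04 ± 0.09. Its 2 other probe sets, about as bright, gave 0.24 and 0.26. SREBF1 ran from 6.89 to 7.56 with miR-124 and from 7.12 to 7.77 with the control, with a late ratio of −0.19 ± 0.18 (adjusted p = 0.497), and −0.54 without 120 h (adjusted p = 0.0392). INSIG1 ran from 6.13 to 6.41 and from 6.09 to 6.39 in the same order, just above the filter, and its slopes were −0.01 ± 0.03 and 0.02 ± 0.03. On the probe sets used, none of these 3 was called in any fit of all 7 times. With the mean over its probe sets SREBF2 was called in both courses, at 0.18 with miR-124 and 0.11 with the control (adjusted p = 0.00633 and 0.0276).

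Of 8 tested fatty acid genes, 5 rose over time with miR-124 (ACLY, ELOVL6, FADS2, FASN and SCD) and 1 with the control (FASN), and none fell. An unadjusted limma p under 0.05 was reached by 6 of 8 with miR-124 and 7 of 8 with the control. Of all 13137 genes, 4932 and 3671 reached it. With time in hours ACLY, ELOVL6, FADS2 and SCD were called with the control as well (adjusted p between 0.00347 and 0.0171). That setting called 2857 of all genes in the control course, in place of 1075. FASN, the fatty acid synthase, read 9.37, 9.99, 9.78, 10.25, 10.42, 10.58 and 11.27 with miR-124, against 10.01, 9.80, 10.30, 10.53, 10.02, 11.35 and 11.01 with the control. The order of the transfections changed 5 times along the course, and the ratio ranged from −0.77 to 0.40. Its slope was 0.34 ± 0.05 with miR-124 (adjusted p = 0.00597) and 0.27 ± 0.07 with the control (adjusted p = 0.0453, or 0.0635 to 0.113 when any time but 32 h was left out). With the mean over its probe sets the control slope was 0.14 (adjusted p = 0.0545). The late ratio of −0.25 ± 0.30 was not called (adjusted p = 0.589).

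ACLY, which releases acetyl-CoA from citrate, had slopes of 0.18 ± 0.02 with miR-124 and 0.12 ± 0.03 with the control (adjusted p = 0.00613 and 0.0557). SCD, which puts the first double bond into fatty acids, had 0.20 ± 0.06 with each (adjusted p = 0.0427 and 0.0592). The miR-124 call of SCD was lost without 8, 16, 72 or 120 h (adjusted p between 0.0726 and 0.19). Its late ratio was −0.10 ± 0.10 on the probe set used, and −0.47, −0.63 and −0.63 on 3 dimmer ones, so its probe sets disagree. The mean over all 4 was −0.46 (adjusted p = 0.0112). ACACA, the carboxylase that makes malonyl-CoA, had slopes of 0.09 ± 0.04 and 0.13 ± 0.05, called in neither, and a late ratio of −0.29 ± 0.17, which was −0.68 without 120 h (adjusted p = 0.00215).

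ELOVL6, which lengthens saturated fatty acids, differed in the middle window. It read 9.09, 8.44, 9.31, 9.32, 9.15, 10.06 and 10.32 with miR-124, against 8.99, 8.49, 8.99, 8.88, 8.39, 9.97 and 10.79 with the control. The control level was lowest at 32 h, where the gap was widest, and at 120 h the control was the higher one. The middle ratio was 1.42-fold (log2 0.51 ± 0.12, adjusted p = 0.0483, or 0.0789 to 0.352 when 4, 8, 16, 24 or 32 h was left out, and 0.268 without the block). That call was also lost with centred arrays and with a prior variance following the mean (adjusted p = 0.0516 and 0.0536). The late ratio was −0.19 ± 0.15 (adjusted p = 0.395), and the late minus middle difference −0.70 ± 0.20 (adjusted p = 0.0925). A second ELOVL6 probe set gave 0.48 in the middle and −0.43 in the late window. The dimmest gave 0.11 and 0.37, so the late values differ in sign. On the probe set used, the ELOVL6 slope was 0.31 ± 0.07 with miR-124 (adjusted p = 0.0227, and 0.0583, 0.0523 and 0.0762 without 8, 72 or 120 h) and 0.36 ± 0.12 with the control (adjusted p = 0.0982).

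GPAM, the acyltransferase that starts glycerolipid synthesis, was higher late. It read 10.07, 9.87, 10.05, 9.90, 10.01, 10.24 and 10.65 with miR-124, against 10.05, 10.00, 10.02, 9.99, 9.90, 9.61 and 9.81 with the control. Until 32 h the transfections differed by at most 0.12 log2, and at 72 and 120 h by 0.62 and 0.85. The late ratio was 1.66-fold (log2 0.73 ± 0.09, adjusted p = 0.00138), and a second probe set gave 0.62. GPAM was the 1 member whose late and middle ratios differed past the threshold, by 0.72 ± 0.12 (adjusted p = 0.019, and 0.0766, 0.111 and 0.0539 without 16, 24 or 32 h), where 3.21% of all genes were higher and 1.54% lower. Its slopes, 0.11 ± 0.04 with miR-124 and −0.07 ± 0.02 with the control, were not called (adjusted p = 0.0992 and 0.095), nor was their difference (0.18 ± 0.05, adjusted p = 0.051). The difference was called with centred arrays, with time in hours and without 4 h (adjusted p = 0.0477, 0.012 and 0.0423). The miR-124 slope was called with the mean over probe sets and with time in hours (adjusted p = 0.0473 and 0.0249).

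FADS2, a desaturase of polyunsaturated fatty acids, rose with miR-124 (0.14 ± 0.03, adjusted p = 0.0221, and 0.0698, 0.0522 and 0.0749 without 4, 8 or 120 h), or 0.06 with the mean over its probe sets (adjusted p = 0.133), beside 0.13 ± 0.05 with the control (adjusted p = 0.115). THRSP, a lipogenic nuclear protein, ran from 6.52 to 6.86 with miR-124 and from 6.46 to 6.86 with the control and was called in no fit. ME1 ran from 4.89 to 5.14 with miR-124 and from 4.86 to 5.21 with the control.

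**Figure D5:**
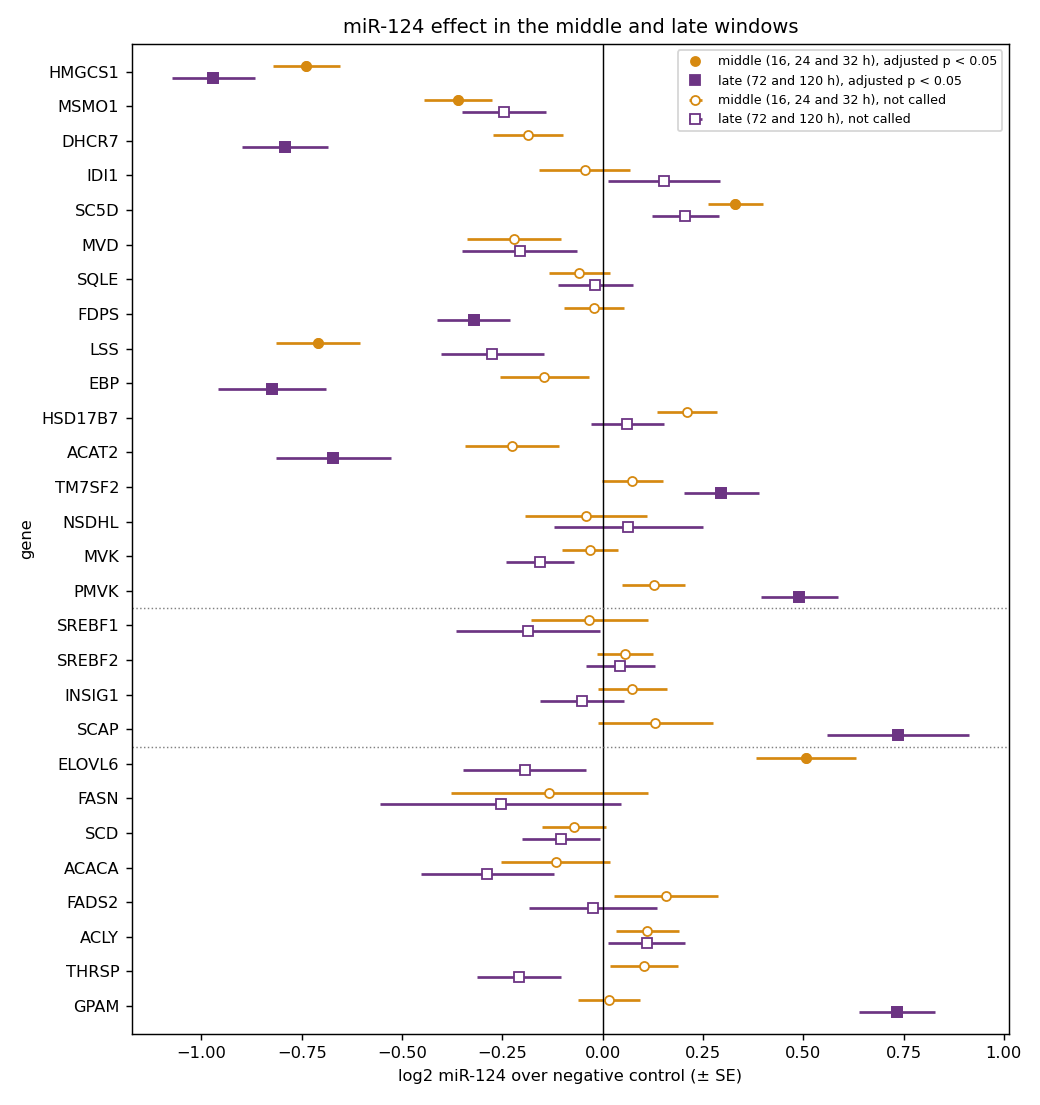
Log2 ratio, miR-124 over negative control (horizontal axis, ± SE), of 28 tested genes in the middle window (orange circles, 3 pairs of arrays) and the late window (purple squares, 2 pairs). Filled symbols have an adjusted p under 0.05 and open symbols do not. HMGCS1 is filled in both windows at −0.74 and −0.97, and GPAM and SCAP are filled in the late window at 0.73 and 0.74.

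Of 46 other genes of the same pathways, 37 were tested. With time, 12 of the 37 rose and none fell with miR-124, where 13.7% of all genes rose and 8.06% fell. With the control 12 rose and 1 fell, where 2.7% and 5.48% of all genes did. The steepest control slopes were those of LPIN1, a phosphatidate phosphatase (0.41 ± 0.07), ACSS2, which activates acetate (0.40 ± 0.08), STARD4, a sterol carrier (0.35 ± 0.04), and SOAT2, which esterifies cholesterol (0.32 ± 0.05), with adjusted p between 0.00946 and 0.0277. In the middle window 3 of 37 were higher and 6 lower, where 3.46% and 4.36% of all genes were. In the late window 5 were higher and 13 lower, where 16.4% and 12.6% of all genes were. ACSL1, an acyl-CoA synthetase, was 2.64-fold lower in the middle window (log2 −1.403 ± 0.19, adjusted p = 0.00671). RDH11, a retinol dehydrogenase, was 2.57-fold higher there (log2 1.36 ± 0.14, adjusted p = 0.00519). Both calls were lost without 24 h, where 0 of all genes tested were called in the middle window. Without 32 h, 12 of all genes were called there.

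ELOVL5, which lengthens polyunsaturated fatty acids, was 2.41-fold lower in the late window (log2 −1.27 ± 0.20, adjusted p = 0.0033). SLC25A1, the mitochondrial citrate carrier, was 2.29-fold lower (log2 −1.19 ± 0.19, adjusted p = 0.00328), and GGPS1, which makes the geranylgeranyl unit, 1.99-fold lower (log2 −0.996 ± 0.20, adjusted p = 0.00822). These 3 were also among the 6 lower in the middle window, ELOVL5 at −0.94 ± 0.17, SLC25A1 at −0.92 ± 0.16 and GGPS1 at −0.79 ± 0.16. Their middle calls were lost without 24 h as well. ABCA1, which exports cholesterol from cells, was 1.87-fold higher late (log2 0.90 ± 0.12, adjusted p = 0.00158). In the late window 1 of 6 tested markers of other cell types was also higher, PECAM1 (log2 0.46 ± 0.11, adjusted p = 0.0189), and 1 of 9 hepatocyte markers was lower, FGB (log2 −0.46 ± 0.09, adjusted p = 0.00752). Those shares are close to the 16.4% of all genes that were higher and the 12.6% that were lower. The late ratio was below 0 for 8 of the 9 hepatocyte markers and for 6880 of 13137 genes, with medians of −0.17 and −0.01. An unadjusted limma p under 0.05 was reached by 4 of the 9 and by 5224 genes. Of the 6 markers of other cell types, 4 were below 0. The part of these markers in the results was not tested.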

How the data were processed

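The deposited values are log2 expression values for each probe set, made by the authors with RMA per the submitters' processing notes. Version and settings are not given in the sources used here. RMA makes the distributions of arrays alike, which hides any change in total messenger RNA. There were 54675 probe sets, 62 of them controls. In the annotation given, 41091 of the others carried 1 gene symbol, 1801 several and 11721 none. The number of arrays limits the precision.

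Tests (two-sided) with Benjamini-Hochberg adjustment used lmFit and eBayes of limma 3.58.1 in R 4.3.3. Overall and window effects, and the difference of slopes, had time as a block. Slopes on log2 of time were fitted over 7 arrays. Residual degrees of freedom were 4 for the windows, fitted together, 6 for the overall effect and 5 for the slopes and their difference. The code was tested on simulated data. Array pairs share a time by their labels, and their deviations from the group means correlated at 0.21 to 0.48. Labels name no separate cultures. The p-values and standard errors therefore measure only the spread between these arrays, across times. No 2 arrays were identical.

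Array by array, the text gives in each role the members called in the middle or late window, their difference or the control course, at most 10 by size of effect, and of the other pathway genes the 4 largest called effects in the control course and in each of those windows. The remaining members are described by range or fit. PECAM1, FGB and the middle value of GGPS1 were named after their values were seen. Members, gene lists and rules were chosen with earlier results of these data known. Alternatives were no filter, the mean over all probe sets of a gene, arrays centred on their median, a prior variance following the mean, no block, time in hours, leaving out each time, and, chosen after seeing the data, windows fitted on their own arrays. Sequences are from RefSeq on GRCh38.p14. Plots used matplotlib 3.10.9 (Python 3.11.15).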

Additional observations from a re-analysis of the deposited data

Results flagged for a closer look

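In the 7 arrays of a transfection, 3 of 56 checks found a highest or lowest array far from the others, and chance gives about 1 in 20. EBP had a high miR-124 array at 120 h, 10.96 against 10.47 to 10.62 on the other 6, a gap of 0.702 of the range. ACACA had a high miR-124 array at 120 h (9.81, gap 0.624 of the range), and SREBF1 a high control array at 72 h (7.77, gap 0.586). The times of a course are not replicates, so such a gap can also be part of the course.

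The difference between effects was past the threshold for 3 members. The GPAM ratio was higher in the late than in the middle window by 0.72 log2. The slope of HMGCS1 differed between miR-124 and the control by −0.18 log2 per doubling of time, and that of SCAP by 0.23.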

How the results depend on the processing

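Each of 224 member results was computed under 12 or 13 alternatives. Of 2784 values, 2590 kept the side of the threshold and, where called, the direction, 139 lost a call, 54 gained one and 1 reversed: NSDHL in the late window without 120 h, at −0.40 (0.53 without 72 h). A further 116 values, called in neither setting, had another sign. Over 7 pairs, 1 member and 120 genes were called. These were 0 and 1 without the filter, 0 and 0 with the mean over probe sets, 0 and 1 with centred arrays, and 0 and 328 without the replicate block. The middle window had 5 members, and 3 without the block, and 1028 genes, and 2164 on its own arrays. The late window had 9 and 3821, and 1 (HMGCS1) and 469 on its own arrays. The late minus middle difference had 1 member, and 2 without the filter or without the block. With time in hours, the control course had 2857 genes in place of 1075 and the miR-124 course 1121 in place of 2855. The difference of slopes had 2 members, 4 with centred arrays, 1 without the block and 1 with time in hours, and 1127 genes, 691 without the block.

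Without any 1 time, the member and gene counts ran from 0 to 2 and 0 to 974 over 7 pairs, 0 to 6 and 0 to 2198 in the middle, 6 to 14 and 2861 to 4892 in the late window. They ran from 0 to 5 and 78 to 2369 for late minus middle, 4 to 17 and 229 to 1112 in the control course, 9 to 18 and 1044 to 3205 in the miR-124 course, and 1 to 5 and 223 to 2338 for the difference of slopes. The early window kept 0 members. The causes were not tested, but leaving out a time removes 2 arrays and a window's own arrays leave fewer degrees of freedom. With 1 array for each transfection and time, spread between cultures of a time was not measured.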
